A study of Mus musculus with 102 samples.

Results

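This section describes embryonic stem cells that had lost both sets of enzymes that move a CpG up or down in methylation, compared with the wild-type line. The 6 libraries compared are 3 of TTKO cells 29 days after Cre transduction (TTKO day 29) and 3 of non-transduced wild-type cells (day 0), out of 24 capture libraries and 102 samples in the series. They were chosen by their labels, and every CpG of the deposited capture table entered, 2177608 in all. Both lines are C57BL6/J mouse embryonic stem cells whose Dnmt3a and Dnmt3b genes carry loxP sites around catalytic exons. In the wild-type line TET is wild type and Dnmt3a/3b are intact. The TTKO line (TET triple knockout) was made by cutting the catalytic exons of Tet1, Tet2 and Tet3 and is 1 clone, and Cre protein then left it with catalytically dead Dnmt3a/3b, although the study's methods state that a minor share of functional alleles stayed in the population. The pair therefore differs in genotype, in clone, in Cre treatment and in 29 days of culture, and these cannot be told apart in the 2 columns alone. Non-transduced TTKO cells (TTKO day 0, 3 libraries) stand between them in the design. They split the difference into a TET step (TTKO day 0 minus wild type) and a DNMT3 step (TTKO day 29 minus TTKO day 0). These names are short forms. The TET step also holds the separate derivation of the TTKO clone, for gains and losses alike. The DNMT3 step also holds Cre treatment and 29 days of culture.

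DNMT3A and DNMT3B are the de novo methyltransferases, which add a methyl group to unmethylated CpGs. TET1, TET2 and TET3 oxidise 5-methylcytosine and so open the way to its active removal. DNMT1 copies methylation to the new strand at replication, and it is the methyltransferase that remains when DNMT3A and DNMT3B are gone. In embryonic stem cells TET acts at enhancers and other distal regulatory regions, while most CpG islands at promoters are free of methylation.

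In capture bisulfite sequencing (SureSelect), baits enrich chosen regions from sheared DNA. Bisulfite then converts unmethylated cytosines, and the methylation level of a CpG is the percent of its reads in which the cytosine was protected. Differences are given in percentage points, as TTKO day 29 minus wild type unless stated. The 3 replicates of a group are joined in a single deposited column, so no spread between replicates is known for capture levels, and Fisher's exact test on the pooled reads compares libraries, not conditions. Per CpG, the median number of reads was 247 in wild type, 248 in TTKO day 0 and 242 in TTKO day 29. At this depth the counting error of a difference (standard error) was 1.97 points at a level of 5%, 3.62 at 20% and 4.52 at 50%. Since the reads carry no molecular identifiers and may be copies, these errors and the intervals below cover counting error only.

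The sequences below are those in which the difference was largest, and they are shown because the spacing of CpGs and the bases beside them are taken up in the results that follow. All are from the mm9 assembly, plus strand, 5′ to 3′, with each CpG in capitals. The first 4 regions stand higher in TTKO day 29 than in wild type.
near Tmeff2, chr1:51286881-51287180: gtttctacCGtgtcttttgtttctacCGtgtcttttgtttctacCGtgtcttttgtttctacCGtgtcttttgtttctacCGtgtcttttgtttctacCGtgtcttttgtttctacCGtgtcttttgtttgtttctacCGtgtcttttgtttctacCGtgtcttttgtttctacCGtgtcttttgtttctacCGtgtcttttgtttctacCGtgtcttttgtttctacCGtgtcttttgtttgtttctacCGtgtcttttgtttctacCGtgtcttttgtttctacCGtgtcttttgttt
1700106N22Rik intron, chr17:85656478-85656777: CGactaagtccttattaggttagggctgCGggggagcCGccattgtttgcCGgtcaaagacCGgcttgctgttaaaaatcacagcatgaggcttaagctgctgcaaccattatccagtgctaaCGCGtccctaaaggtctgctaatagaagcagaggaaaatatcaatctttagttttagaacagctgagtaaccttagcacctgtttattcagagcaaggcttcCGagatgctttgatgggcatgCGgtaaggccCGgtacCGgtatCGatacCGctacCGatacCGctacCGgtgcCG
Cyfip1 coding exon and intron, chr7:63147293-63147515: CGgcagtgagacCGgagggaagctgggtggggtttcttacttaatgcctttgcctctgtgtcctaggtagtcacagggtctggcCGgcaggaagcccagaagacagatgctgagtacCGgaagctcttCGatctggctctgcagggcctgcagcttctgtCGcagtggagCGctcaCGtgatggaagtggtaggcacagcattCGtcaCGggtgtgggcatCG
Slfn9, chr11:82804605-82804809: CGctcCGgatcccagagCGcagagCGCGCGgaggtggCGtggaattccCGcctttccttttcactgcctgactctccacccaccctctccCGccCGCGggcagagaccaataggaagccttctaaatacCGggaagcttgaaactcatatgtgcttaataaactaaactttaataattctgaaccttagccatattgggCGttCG
The next 4 regions stand lower in TTKO day 29.
near Cd2, chr3:101010267-101010566: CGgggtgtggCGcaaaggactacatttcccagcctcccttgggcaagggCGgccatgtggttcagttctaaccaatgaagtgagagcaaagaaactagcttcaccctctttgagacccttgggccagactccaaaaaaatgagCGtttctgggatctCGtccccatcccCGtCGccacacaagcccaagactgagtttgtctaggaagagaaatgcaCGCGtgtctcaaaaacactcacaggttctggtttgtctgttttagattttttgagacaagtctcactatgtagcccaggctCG
near Clpb, chr7:108802436-108802517: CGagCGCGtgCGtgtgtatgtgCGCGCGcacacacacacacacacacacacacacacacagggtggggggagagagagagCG
Grin2b intron, chr6:135776749-135777048: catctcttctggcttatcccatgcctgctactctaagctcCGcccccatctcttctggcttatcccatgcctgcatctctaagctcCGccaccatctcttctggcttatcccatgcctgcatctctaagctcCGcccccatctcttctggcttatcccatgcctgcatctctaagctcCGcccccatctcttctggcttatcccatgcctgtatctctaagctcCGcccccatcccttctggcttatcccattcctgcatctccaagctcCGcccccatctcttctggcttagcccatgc
near Sestd1, chr2:77151746-77152045: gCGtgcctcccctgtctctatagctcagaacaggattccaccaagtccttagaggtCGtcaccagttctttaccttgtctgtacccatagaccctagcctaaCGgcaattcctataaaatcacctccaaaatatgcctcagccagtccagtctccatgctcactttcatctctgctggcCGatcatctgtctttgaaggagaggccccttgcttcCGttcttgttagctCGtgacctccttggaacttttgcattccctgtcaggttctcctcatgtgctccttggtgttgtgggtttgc
The regions near Tmeff2 and Sestd1 and the region in Grin2b are longer than 300 bases, and their central 300 bases are shown. The stretch near Tmeff2 is a tandem array in which 13 of 15 gaps between CpGs are 18 bases, and all 16 CpGs sit in the same 6 bases, ACCGTG. The stretch in Grin2b is an array too, with all 5 gaps at 46 bases and all 6 CpGs in GGCGGA, read on the other strand as TCCGCC. The reads were short and can fit more than 1 unit of such an array, and the part of this in their levels was not tested.

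Over all CpGs, mean methylation was 23.4% in wild type, 35.8% in TTKO day 0 and 19.6% in TTKO day 29. The line without both activities therefore ended 3.84 points below wild type on average, with a median difference of -0.7 points and single CpGs from -79.8 to 83.9 points. The TET step was 12.4 points and the DNMT3 step -16.3 points. A CpG was called when the adjusted p of Fisher's exact test was under 0.05 (Benjamini-Hochberg, two-sided) and the difference was at least 10 points. By this rule 175719 CpGs (8.07%) were higher and 477558 (21.9%) were lower in TTKO day 29, so that lower calls were 2.72 times as many as higher calls. A further 45365 CpGs differed by 10 points or more without passing the test, and 1524331 CpGs were not called. Levels of the 2 columns correlated with r = 0.867 across the 2177608 CpGs, which share their libraries and are not replicates.

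**Figure D1:**
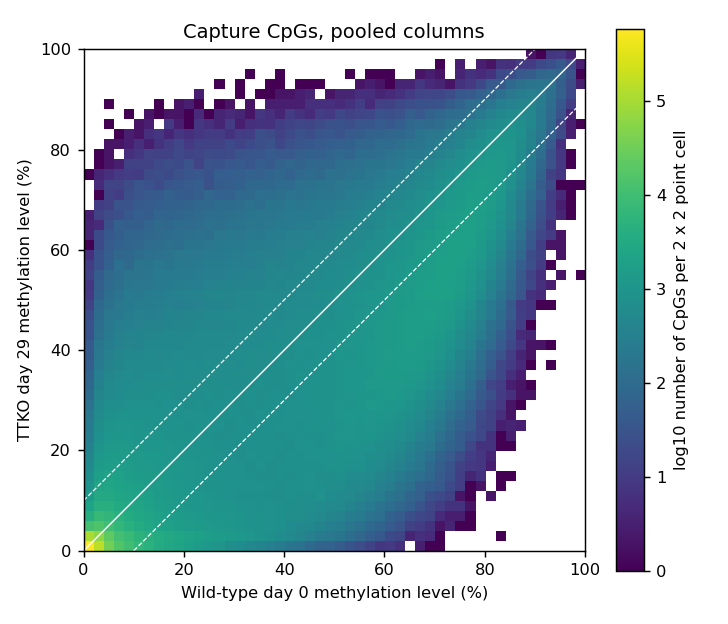
Number of capture CpGs (log10 colour scale, cells of 2 by 2 points) by wild-type day 0 level (x axis, %) and TTKO day 29 level (y axis, %), both from pooled columns of 3 replicates. The solid line marks equal levels and the dashed lines a difference of 10 points; 175719 called CpGs lie above and 477558 below, and the bulk above 50% in wild type lies under the diagonal.

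Extreme differences were about as frequent in both directions. The number of CpGs that were at least 50 points higher was 3561, and the number at least 50 points lower was 3860. At the other end of the range, 5% of the CpGs were lower by 30.6 points or more and 5% were higher by 17.3 points or more. Just inside the threshold of 10 points, the 19088 higher calls under 12 points went from 23.2% to 34.1%, and just outside it the 30174 CpGs that were 8 to 10 points higher went from 27.4% to 36.3%. For lower CpGs the values were 42.7% to 31.7% inside (37837 CpGs) and 43.0% to 34.1% outside (57182 CpGs).

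CpGs at which the gain without TET outweighed the loss without DNMT3 had a low wild-type level and a high level in TTKO day 0. A CpG high in wild type has little room to be called higher, so the rule shapes part of this. The 175719 higher CpGs had means of 22.3% in wild type, 72.1% in TTKO day 0 and 44.8% in TTKO day 29. Of these, 164574 (93.7%) gained at least 10 points in the TET step and gave back at least 10 in the DNMT3 step. Another 10981 (6.25%) gained at least 10 points and then moved by under 10, from 79.3% in TTKO day 0 to 73.6% in TTKO day 29, against 48.6% in wild type. That these CpGs kept nearly their whole level at 29 days after Cre is fixed by the rule that formed them.

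CpGs with the reverse balance were methylated in wild type already. The rule fixes this in part, since a level under 10% cannot fall by 10 points. The 477558 lower CpGs had means of 53.8% in wild type, 63.5% in TTKO day 0 and 30.2% in TTKO day 29. For 249261 of them (52.2%) the TET step was within 10 points, so the difference from wild type was close to the DNMT3 step alone. For 217257 (45.5%) TTKO day 0 was at least 10 points above wild type, at 67.8% against 49.5%, and the level then went to 29.1%. A small remainder of 8269 CpGs (1.73%) was lower by at least 10 points in each step, from 47.0% in wild type to 32.0% in TTKO day 0 and 8.52% in TTKO day 29. Another 2771 were at least 10 points lower in TTKO day 0 and moved by under 10 afterwards. TET loss and the separate derivation of the TTKO clone cannot be told apart at such CpGs, nor at those that gained.

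An unchanged level could hide a pair of large steps. Among the CpGs that were not called, 446858 (29.3%) had gained at least 10 points without TET and lost at least 10 after DNMT3 deletion, with means of 29.7% in wild type, 57.1% in TTKO day 0 and 29.1% in TTKO day 29. The other large group, 997458 CpGs (65.4%), moved by under 10 points in both steps and was at 4.59%, 5.39% and 4.17%, and a median of 13 CpGs lay within 100 bases of each of these, itself included. Taken by the TET step instead, 856932 CpGs were at least 10 points higher in TTKO day 0, of which 20.5% were still called higher at day 29, 25.4% were called lower and 54.2% were not called. Their mean was 33.3% in wild type and 32.6% in TTKO day 29.

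The time course gives the level of each group between the 2 ends that formed it. Lower CpGs had means of 61.4% on day 4, 55.4% on day 8 and 51.1% on day 10, then 47.5% on day 13 and 40.1% on day 17. Their mean passed the wild-type mean of 53.8% between days 8 and 10. The share of them below wild type went from 14.2% in TTKO day 0 to 40.7% by day 8, then to 74.4% by day 13 and 95.5% by day 17. CpGs that were offset were at 36.6% at day 17 and, as the rule for this group fixes, near the wild-type mean at day 29. Higher CpGs were at 51.7% at day 17. Of the level in TTKO day 0, higher CpGs retained 62.2% at day 29, lower CpGs 47.6% and offset CpGs 50.9%. Since the groups were formed with the day 29 values, these retained shares and the days of crossing are descriptions.

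**Figure D2:**
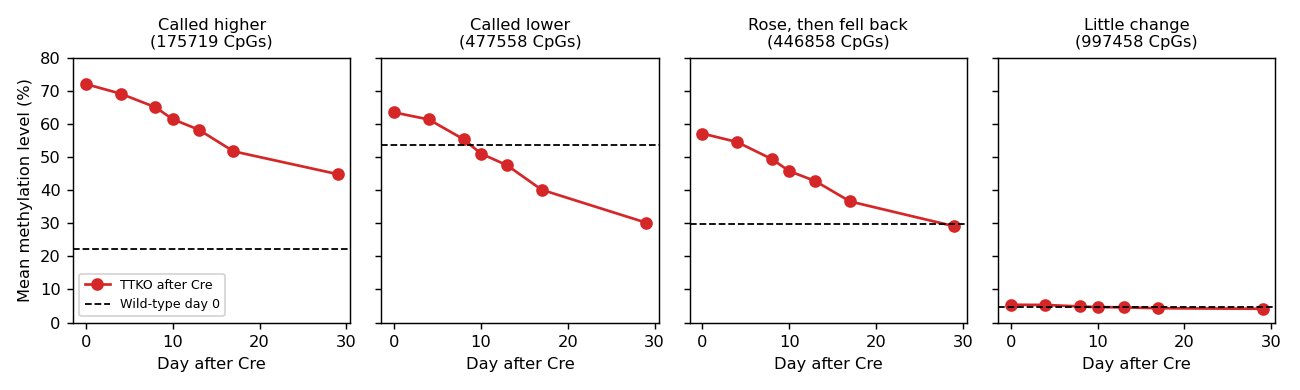
Mean methylation level (y axis, %) by day after Cre (x axis) in TTKO cells for 4 groups of capture CpGs formed from their differences, with the wild-type day 0 mean as a dashed line; points are means over CpGs of pooled columns, without replicate error. Called higher CpGs stay above the line (44.8% against 22.3% at day 29), called lower CpGs cross it between days 8 and 10, and offset CpGs meet it at day 29 as their rule fixes.

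The direction followed the wild-type level. CpGs under 5% in wild type (1022849) were 0.5002 points higher on average, and those at 10 to 20% were 2.96 points higher, with 27.0% called higher and 21.7% lower. At 20 to 30% the mean difference was -0.396 points. It was -11.1 points at 40 to 50% and -17.7 at 60 to 70%, where 64.5% were called lower and 2.84% higher, and it came back to -6.43 points at 90% or more. The wild-type level enters both the bin and the difference, so counting error alone moves low bins up and high bins down. Ordered by TTKO day 0, which does not enter the difference, the mean was lowest at 60 to 70% (-10.5 points, from 38.4% in wild type to 27.9%) and 0.689 points above 0 at 90% or more (74.5% and 75.2%).

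CpG density gave a wide range of differences. An isolated CpG, with no other CpG within 100 bases on either side, was at 44.1% in wild type, 57.7% in TTKO day 0 and 29.9% in TTKO day 29, and 56.3% of the 96474 such CpGs were called lower. With 5 to 6 CpGs in this window, itself counted, the levels were 31.3%, 49.7% and 27.5%. With 9 to 10 CpGs they were 14.7%, 27.6% and 15.2%, and higher calls (10.2%) outnumbered lower ones (8.16%). Above 20 CpGs the levels were 1.74%, 2.35% and 1.73%, which is the unmethylated core of CpG islands.

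Density went with the TET step and hardly with the DNMT3 step once the starting level was held fixed. This comparison was chosen after the values were seen. Among CpGs at 70 to 80% in TTKO day 0, isolated CpGs went to 42.9% at day 29, those with 5 to 6 CpGs in the window to 42.4% and those with 11 to 15 to 42.6%. In wild type the same 3 groups were at 58.3%, 47.5% and 37.9%. The difference between TTKO day 29 and wild type was thus -15.4 points for isolated CpGs, -5.10 at 5 to 6 CpGs and 4.66 at 11 to 15.

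**Figure D3:**
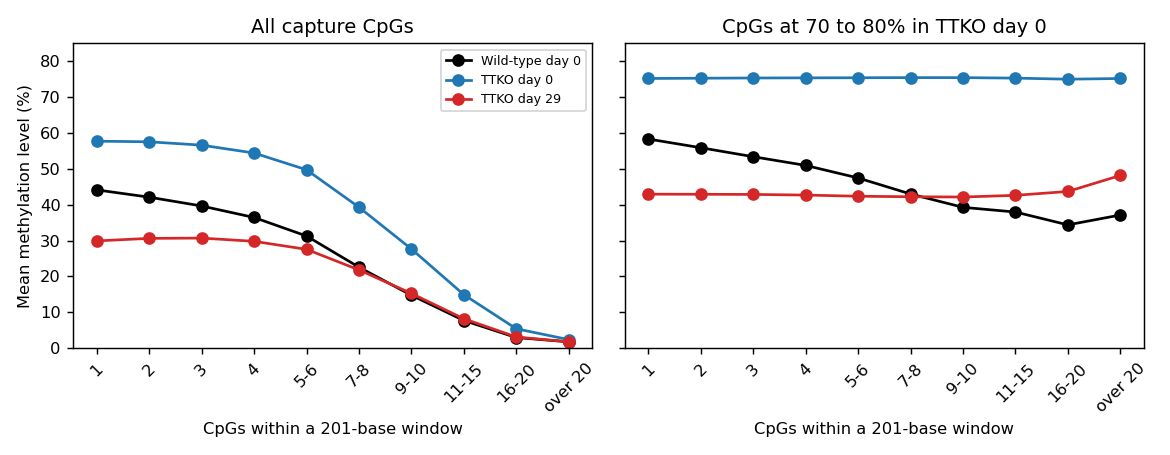
Mean methylation level (y axis, %) by the number of CpGs within 100 bases of a CpG, itself included (x axis) in wild-type day 0, TTKO day 0 and TTKO day 29 pooled columns, for all capture CpGs (left) and those at 70 to 80% in TTKO day 0 (right). On the left TTKO day 29 lies below wild type up to 6 CpGs (27.5% against 31.3%) and next to it from 7; on the right TTKO day 29 is near 42 to 44% up to 20 CpGs while wild type goes from 58.3% to 34.4%.

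By position relative to genes, intergenic CpGs showed the largest mean difference (-6.08 points, 33.1% to 27.0%, 615222 CpGs), followed by introns (-5.35 points, 712039 CpGs). Coding exons were at 22.3% in wild type and 21.0% in TTKO day 29, with 11.5% called higher, the highest share of the 5 classes, and 16.1% lower. Promoter CpGs were at 5.21%, 9.01% and 4.70% in the 3 columns. At a matched wild-type level of 40 to 60%, coding exons were 7.33 points lower and intergenic CpGs 14.8 points lower. Mean differences by chromosome ran from -4.91 points on X to -3.23 on 11. In 1-megabase bins of CpGs more than 1000 bases from a gene start, the mean was above 0 in 48 of 1628 bins. The highest bin (chromosome 12, 92000001 to 93000000) had 6.93 points over 450 CpGs, and the lowest (chromosome 3, 78000001 to 79000000) had -17.8 points over 265 CpGs.

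The bases flanking the CpG ordered the differences as well. Contexts are written with 1 base on each side and joined with their reverse complement. CCGG was the only 1 of 10 contexts with a mean above 0 (0.599 points, 12.7% higher and 11.2% lower), and TCGA was lowest (-8.08 points, 5.28% higher and 34.0% lower). CCGG made up 15.02% of all higher calls, 4.87% of lower calls and 9.56% of all CpGs. To hold position and density nearer, the same was done for CpGs more than 1000 bases from a gene start with 3 to 6 CpGs in the window, where CCGG was at 0.234 points and TCGA at -10.9.

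With 2 bases on each side, the range among those distal CpGs was wider. Of 130 contexts with at least 1000 CpGs, CTCGCC was lowest, at 36.9% in wild type, 50.7% in TTKO day 0 and 19.7% in TTKO day 29, with 59.997% of its 7617 CpGs called lower. CACGCC (-16.8 points), GGCGAA (-14.8) and CCCGCC (-14.8) came next. ACCGGT was highest, at 36.1%, 60.8% and 42.0%, with 30.4% of its 2332 CpGs called higher and 12.2% lower. ACCGGC (4.16 points), TCCGGA (2.76) and ACCGGA (2.56) preceded it. Read on either strand, these 4 lowest contexts thus shared CGCC and the 4 highest CCGG. In the stretches shown above, CCGG occurs in the higher regions of 1700106N22Rik, Cyfip1 (ACCGGA 2 times) and Slfn9, and in none of the lower regions. CGCC, read on either strand, occurs in both directions. It is in 1700106N22Rik and Slfn9 (CCCGCC 2 times), which are higher, and near Cd2 and in Grin2b, which are lower. These few regions were picked by their difference, and the letters in them were not tested. The contexts of the arrays were at -0.936 points (ACCGTG, near Tmeff2) and -10.8 points (GGCGGA, in Grin2b) over all such distal CpGs. Among distal CpGs at 70 to 80% in TTKO day 0, again chosen after the values were seen, CTCGCC retained 48.1% of the day 0 level and ACCGGT 64.1%, the lowest and highest of 122 contexts (36.0% and 48.5% at day 29).

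Motifs of transcription factors were searched in the mm9 sequence on both strands, and a CpG was near a motif when its centre lay within 50 bases. A match is a run of letters, not a bound site. ESRRB, an orphan nuclear receptor of the stem cell network, has the motif TCAAGGTCA, and 0.368% of all CpGs were near it. CpGs near it were at 28.8% in wild type, 56.4% in TTKO day 0 and 31.3% in TTKO day 29, and 26.5% of 8007 were called higher against 8.00% of the others. For distal CpGs with 3 to 6 CpGs in the window the shares were 31.3% and 11.8%. The wild-type level had its low point 20 to 30 bases from the motif centre, at 28.6%, against 41.5% at 150 to 200 bases, whereas TTKO day 29 lay between 34.0% and 36.4% from 10 to 200 bases. Within 10 bases of the centre the order was the reverse, with 37.0% in wild type and 28.1% at day 29. Distal CpGs at 70 to 80% in TTKO day 0 were also compared, a choice made after the values were seen. Those near the motif and all others both stood at 42.7% at day 29, and at 38.3% and 50.8% in wild type. Wild type was also lower near each other motif searched, as for TGCCGC (42.2% against 50.9%), and the gap was widest for ESRRB. CpGs near the octamer (below) and elsewhere both stood at 42.7% at day 29, and those near the CTCF core at 38.9% against 42.7%.

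The octamer ATGCAAAT, bound by OCT4 (Pou5f1), a core pluripotency factor, gave a smaller shift. Of 8733 CpGs near it (0.401% of all), 12.6% were called higher and 20.6% lower. Their mean difference was -2.25 points against -3.84 for the others. For distal CpGs with 3 to 6 CpGs in the window, 17.1% were called higher and 25.5% lower near it, against 11.8% and 36.4% elsewhere. CTCF is an insulator protein that binds DNA with low methylation, and its core motif (AGGGGGCGC or AGGTGGCGC, 0.856% of CpGs near it) holds a CpG of its own. CpGs near it were at 7.09%, 11.7% and 5.17% in wild type, TTKO day 0 and TTKO day 29, with 2.52% called higher and 8.53% lower against 8.12% and 22.0% of the others. Both shares were thus below those elsewhere. This held for distal CpGs with 3 to 6 CpGs in the window too, with 3.10% and 18.3% against 11.9% and 36.4%. Distal CpGs within 10 bases of the motif centre went from 9.83% in wild type to 4.83% in TTKO day 29 for CTCF, with 17.1% called lower. For the octamer they went from 28.01% to 17.8%, with 38.4% called lower. At 750 to 1000 bases from the centre, 19.8% were called lower for CTCF and 32.1% for the octamer. For the GC box of SP and KLF factors (GGGGCGGGG, 2.08% of CpGs) the levels were 7.48%, 12.8% and 5.96%, with 3.98% called higher and 8.53% lower. For the parts of the REST motif (GGACAGCGC or TTCAGCACC, 0.411%), bound by a repressor of neuronal genes, they were 13.5%, 23.4% and 13.0%, with 8.17% and 9.95%. The E-box CACGTG (3.17%), the NRF1 core GCATGCGC (0.728%) and TGCCGC (5.55%), the letters that ZFP57 reads at imprinted regions, had 8.61%, 7.09% and 7.45% of CpGs called higher and 20.1%, 12.1% and 7.33% called lower, against 8.07% and 21.9% of all CpGs. CpGs near the NRF1 core and TGCCGC lie in denser sequence, with a mean of 13.6 and 14.6 CpGs in the window against 8.99 and 8.70 elsewhere. Among distal CpGs with 3 to 6 CpGs in the window, 12.9% were called higher and 34.0% lower near the NRF1 core, against 11.9% and 36.3% elsewhere. Near TGCCGC the shares were 17.0% and 24.9%, against 11.7% and 36.6%. In the same set of distal CpGs they were 10.9% and 33.1% near the GC box, against 11.9% and 36.3% elsewhere. Near the parts of the REST motif they were 14.5% and 22.5%, against 11.9% and 36.4%. The density of all CpGs near the GC box was 14.01 CpGs in the window against 8.92 elsewhere.

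**Figure D4:**
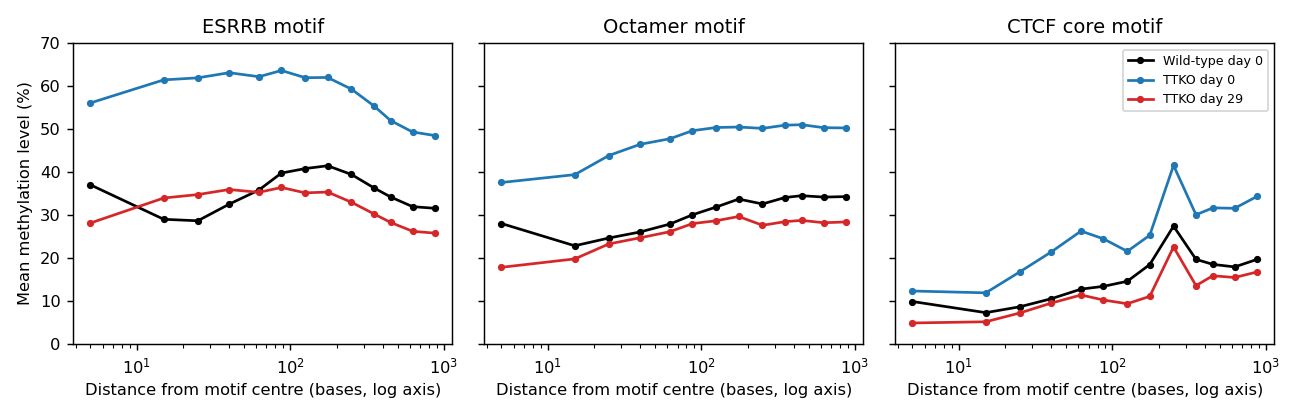
Mean methylation level (y axis, %) by distance of a CpG from the nearest motif centre (x axis, bases, log scale) for CpGs more than 1000 bases from a gene start, in wild-type day 0, TTKO day 0 and TTKO day 29 pooled columns. Near the ESRRB motif the wild-type line dips below TTKO day 29 (28.6% and 34.8% at 20 to 30 bases), near the octamer both lines dip, and near the CTCF core TTKO day 29 lies lowest (4.83% within 10 bases).

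Neighbouring CpGs were gathered into 64088 regions, runs of at least 8 captured CpGs with gaps of up to 100 bases. Without a test, 4412 regions (6.88%) were at least 10 points higher on average and 10163 (15.9%) at least 10 points lower. The higher regions had means of 22.2%, 69.5% and 40.3% in wild type, TTKO day 0 and TTKO day 29, and the lower ones 53.7%, 66.3% and 36.9%. A CpG in a promoter was held by 6.57% of the higher, 5.12% of the lower and 35.6% of the other regions. Calls within a region were mixed, and 1260 higher regions (28.6%) also held at least 1 CpG called lower. With at least 15 CpGs per region the counts were 1234 and 1486, and with gaps of up to 200 bases they were 4743 and 17876, so the balance of regions depended on how they were drawn.

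The region with the largest gain lies on chromosome 1 (51286853 to 51287208), 42739 bases from Tmeff2, which encodes a transmembrane protein with follistatin domains. Its 19 CpGs were at 21.3% in wild type, 86.3% in TTKO day 0, 79.8% at day 17 and 77.4% at day 29, and each was called higher. The intronic region of 1700106N22Rik on chromosome 17 (85656478 to 85656777) went from 7.81% in wild type to 82.6% in TTKO day 0 and 62.2% at day 29 over 17 CpGs. In Cyfip1, whose product is part of the complex that controls actin branching, 11 CpGs of which 9 are coding (chromosome 7, 63147293 to 63147515) were at 7.94%, 84.9% and 62.0%. In Slfn9, of the schlafen family, 14 CpGs 523 bases from the gene start (chromosome 11, 82804605 to 82804809) were at 12.5%, 76.9% and 64.8%. All 4 regions were at 21.3% or less in wild type and at 76.9% or more in TTKO day 0.

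The next regions in rank showed the same order of the columns. An intronic region of Wasf3, an actin regulator, was at 14.6%, 80.5% and 66.9% over 10 CpGs, and a coding region of Rps6kc1, a kinase of the S6 kinase family, at 18.1%, 83.4% and 69.0% over 11 CpGs. A region 118549 bases from Sox14, a transcription factor of neuronal development, was at 5.43%, 80.1% and 56.3% over 12 CpGs. The longest of the 12 named regions spans 1132 bases with 55 CpGs, 10166 bases from Errfi1, an inhibitor of EGF receptor signalling (chromosome 4, 150253167 to 150254298), and all 55 were called higher (12.02%, 72.4% and 62.5%). Introns of Zfp697 and Dok5, a region 72384 bases from 2610021K21Rik and the start of Gm10295 complete the 12, with differences of 48.0 to 50.8 points.

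Of the 12 regions with the largest loss, 10 were below wild type in TTKO day 0, before Cre. Ranking by the fall from wild type favours regions with a high wild-type value, so part of this follows from the choice. The region 69256 bases from Cd2, a T cell adhesion molecule (chromosome 3, 101010267 to 101010566), was at 71.1% in wild type, 58.4% in TTKO day 0, 28.3% at day 17 and 19.7% at day 29 over 10 CpGs. The 8 CpGs 9630 bases from Clpb, a mitochondrial chaperone (chromosome 7, 108802436 to 108802517), were at 57.3%, 42.7% and 8.75% in wild type, TTKO day 0 and day 29. The Grin2b array, in an intron of a glutamate receptor subunit gene (chromosome 6, 135776685 to 135777112), was at 61.4%, 41.3% and 12.8% over 10 CpGs. The 15 CpGs 22456 bases from Sestd1 (chromosome 2, 77151619 to 77152171) were at 53.6%, 28.0% and 6.34%. At each of these 4 regions TTKO day 0 was thus below wild type, and the DNMT3 step added to that.

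The other 2 were not below wild type until after Cre. The region just before the start of Gm17497 was at 69.6%, 73.4% and 23.9%, and one 10720 bases from Atg4c, an autophagy protease, at 64.7%, 66.9% and 21.1%. Regions near Mvk, Cngb1 and Ocm and in an intron of Rnls were 4.22 to 6.29 points below wild type in TTKO day 0 and between 6.25% and 24.0% at day 29.

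Single CpGs were ranked among those with at least 150 reads in each of the 3 columns (1573558, 72.3% of all), and the lowest of all CpGs, at -79.8 points, had fewer reads and is not among them. The sequences around the largest gain and the largest loss in this set follow, with CpGs in capitals and the CpG in question at base 31.
near Fgf5, chr5:98722446-98722507: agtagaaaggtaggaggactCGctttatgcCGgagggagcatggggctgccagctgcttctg
Gmds intron, chr13:32048825-32048886: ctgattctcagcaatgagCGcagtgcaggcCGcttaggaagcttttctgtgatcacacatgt
The intergenic CpG 16427 bases from Fgf5, a growth factor of primed pluripotency (chromosome 5, 98722476 to 98722477), was at 4.8% of 273 reads in wild type (95% Wilson interval 2.80 to 7.98). It was at 89.7% of 272 reads in TTKO day 0 (85.5 to 92.8) and at 88.7% of 212 reads at day 29 (83.7 to 92.3). Its level hardly moved after Cre, with 93.2% at day 4 and 89.1% at day 17. The other 4 largest gains, near 1700129C05Rik and A230072I06Rik and in introns of Mdm1 and Gabbr2, were at 2.3% to 7.1% in wild type and at 79.8% to 84.5% at day 29.

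Among CpGs with at least 150 reads in each column, the largest loss was in an intron of Gmds (chromosome 13, 32048855 to 32048856), which encodes an enzyme of GDP-fucose synthesis. It was at 80.7% of 150 reads in wild type (73.6 to 86.2), 64.4% of 163 reads in TTKO day 0 (56.8 to 71.4) and 10.1% of 158 reads at day 29 (6.33 to 15.8). The other 4 were near Zfp808, Nmu and 6720489N17Rik and in an intron of Zfp362, at 73.6% to 82.3% in wild type and 5% to 13.6% at day 29. All 5 were at least 12.6 points below wild type in TTKO day 0 already. They were picked for the largest fall from wild type, which favours high wild-type readings, so part of this follows from the choice.

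Promoters were taken as 1000 bases before to 500 after the start of a protein-coding gene, with at least 8 CpGs, which left 14168. Of these, 176 (1.24%) were at least 10 points higher in TTKO day 29 and 520 (3.67%) lower, without a test. Higher promoters were at 22.1%, 65.9% and 39.3% in wild type, TTKO day 0 and day 29, and lower ones at 51.5%, 63.2% and 35.4%. The other 13472 were at 5.64%, 10.3% and 5.26%, and 87.6% of these were under 10% in wild type. Both groups of moved promoters were poorer in CpGs, with a mean of 7.76 and 5.09 CpGs within 100 bases of each CpG against 13.8.

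The promoter of Egf, the epidermal growth factor, was at 7.64% in wild type, 76.9% in TTKO day 0 and 50.7% at day 29 over 10 CpGs, a difference of 43.1 points (SD 10.5 over CpGs). BC006779 had the same difference, at 7.76%, 79.8% and 50.8%. The chemokine gene Cxcl10 was at 18.05%, 75.9% and 50.2%, with single CpGs from -13.2 to 69.2 points. Rgs4, a regulator of G protein signalling, was at 29.7%, 83.2% and 66.6%, and the collagen gene Col24a1 at 8.71%, 76.5% and 49.5%. Mapk10, the neuronal JNK kinase, was at 5.79%, 68.9% and 36.1%. Gm10295, Olfr212, Slfn9 and Slc5a4a complete the 10 largest gains, with 30.5 to 42.9 points.

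Among promoters with a loss, Ctss, a lysosomal protease, was at 59.7%, 70.4% and 25.8% over 9 CpGs. Fbxw10 was at 44.8%, 45.3% and 13.9%, and Epb4.2, an erythrocyte membrane protein gene, at 65.6%, 69.3% and 34.1%. Also among the 10 largest losses were Gm17497 (69.6%, 73.4% and 23.9%), Gm17305, Gm13051, Gm16382, 8030474K03Rik and Gm9766. Gm13051 (37.4%, 14.0% and 3.21%) and 8030474K03Rik (51.5%, 41.6% and 17.95%) were below wild type in TTKO day 0.

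Gene lists give the known groups, and their counts stand beside 1.24% higher and 3.67% lower among all promoters. With so few members, a list with no moved promoter lies near that background. Of 19 measured promoters of pluripotency genes 0 were higher and 0 lower, with a median difference of -0.463 points against -0.130 for all promoters. Pou5f1 (2.78% in wild type and 2.98% at day 29) and Nanog (1.45% and 0.931%) were unmethylated in both lines, as is usual in embryonic stem cells. Of 26 promoters of germline genes that methylation silences, 0 were higher and 3 lower, against 1.24% and 3.67% of all promoters. They were Dpep3, a testis dipeptidase (74.2%, 80.6% and 55.9%), Sycp3, of the synaptonemal complex (36.4%, 38.2% and 22.9%) and Tuba3a, a testis tubulin (67.3%, 80.01% and 54.9%). The other 23 moved by under 10 points, and their median level with these 3 was 30.4% in wild type, 46.7% in TTKO day 0 and 26.7% at day 29.

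Among 21 promoters of imprinted genes, 1 was higher and 2 were lower, counts too small to set apart from the share of all promoters. Grb10, an adaptor that dampens insulin signalling, was at 12.4%, 58.0% and 30.3% over 13 CpGs. Zrsr1, a splicing factor gene expressed from the paternal allele, was at 41.0%, 25.02% and 17.4% over 69 CpGs, and Plagl1, a zinc finger factor, at 42.7%, 35.4% and 24.7% over 64 CpGs. Both were below wild type in TTKO day 0. At Zrsr1 the 69 CpGs moved as a block, with an SD of 2.21 points around the mean of -23.6. The other 18 imprinted promoters stayed within 10 points. For example, Peg3 was at 37.3%, 45.3% and 35.7% and Peg10 at 41.5%, 43.2% and 38.8%.

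Of 12 mesoderm promoters 1 was higher (1.24% of all promoters were), Hand1, a heart and trophoblast factor that is also 1 of 8 trophoblast promoters (21.0%, 67.4% and 32.3% over 41 CpGs). Of 10 promoters of DNMT and TET genes and their partners, 13 neural and 9 endoderm promoters, 0 moved by 10 points, which lies near the background of all promoters. Around the starts, out to 20000 bases and without the 1000 nearest, 72 of 13776 genes (0.523%) were at least 10 points higher and 3791 (27.5%) lower, a measure added after the values were seen. There Gata4 (9.95%, 45.4% and 24.9%), Pdx1 (13.5%, 58.4% and 28.7%) and Rasgrf1 (6.66%, 32.4% and 18.4%) were higher. Stra8, Tex101, Syce1, Tdrd9, Ddx4 and Tdrd6, 6 of 14 germline genes measured, were lower, with Ddx4 at 64.2%, 74.8% and 44.0%. In the pluripotency list 1 of 19 was lower, Dppa5a (20.9%, 25.02% and 7.81%). In the imprinted list Nap1l5, Magel2, Plagl1 and Zrsr1, 4 of 22 measured, were lower, a share under the 27.5% of all genes, with Nap1l5 at 64.9%, 74.7% and 39.8%. Dnmt3l and Tdg (2 of 13 in their list) and the endoderm factor Hnf4a (1 of 11) were lower as well, and 0 of 14 neural genes moved by 10 points.

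Amplicon bisulfite sequencing gave the same comparison with replicates. In it, chosen regions are amplified by PCR after conversion and each sample keeps its own column. Over 398 CpGs with a level in all 6 samples, mean methylation was 26.5%, 25.8% and 26.3% in the 3 wild-type day 0 samples and 24.8%, 24.6% and 24.5% in the 3 TTKO Cre day 29 samples. Every TTKO sample lay below every wild-type sample. The difference of the means (26.2% ± 0.368 and 24.6% ± 0.168, SD, n = 3 each) was -1.56 points (p = 0.1 by a two-sided exact permutation test, and no smaller p is possible with 3 against 3). The study's methods call the replicates biological, and p-values measure the spread between these samples. The 2 lines stand in separate deposited tables, and sequencing runs are not given in the sources used here.

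By CpG, 57 (14.3%) were higher and 158 (39.7%) lower in TTKO day 29 (quasi-binomial model with limma's moderated dispersion, adjusted p threshold 0.05). Groups did not overlap at 63 CpGs (15.8%) with TTKO day 29 higher and at 209 (52.5%) with it lower. Higher calls had a median difference of 18.5 points and lower calls of -8.48 points. Of the calls, 46 higher and 63 lower ones differed by at least 10 points. Among 82 CpGs of unmethylated regions, 36 were called lower, a share near the 39.7% of all 398. Their median difference was -2.02 points, at a class mean of 2.95% ± 0.216 in wild type and 1.30% ± 0.0847 at day 29 (SD, n = 3 each). Low levels of this size also hold incomplete conversion, whose part was not tested.

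Counts by class of region stand beside 14.3% higher and 39.7% lower over all 398 CpGs, and differences between classes were not tested. In low-methylated regions (LMRs, short distal stretches of reduced methylation that mark enhancers) without a named factor, 21 of 59 CpGs were higher and 15 lower, with means over 53 of them of 21.4% ± 0.754 in wild type, 58.8% ± 1.11 in TTKO day 0 and 26.1% ± 1.08 in TTKO day 29 (SD, n = 3 each). In stem-cell-specific LMRs 17 of 64 were higher and 28 lower, at 29.2% ± 1.49, 49.2% ± 0.699 and 27.5% ± 0.433. At LMRs bound by CTCF 3 of 23 were higher and 15 lower, a share of lower calls above that of all CpGs. At those bound by REST 10 of 98 were higher and 36 lower, near the share of all CpGs. In fully methylated regions 0 of 15 were higher and 9 lower (69.1% ± 1.23, 86.7% ± 1.09 and 57.9% ± 2.04, SD, n = 3 each). In methylated islands 0 of 12 were called in either direction, at 90.2% ± 1.58 and 88.9% ± 2.90 in wild type and at day 29.

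Of the 5 CpGs with the largest gains, 3 lie in an intron of Akap6, a kinase anchoring protein gene, in an LMR amplicon. Their stretch is shown with CpGs in capitals, and they are its first, second and last CpG.
Akap6 intron, chr12:54133809-54133928: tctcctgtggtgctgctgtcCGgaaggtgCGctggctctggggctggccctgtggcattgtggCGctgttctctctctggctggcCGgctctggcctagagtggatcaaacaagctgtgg
At the first (chromosome 12, 54133829 to 54133830), wild-type samples were at 10.0%, 5.47% and 7.22% and TTKO day 29 samples at 81.1%, 83.7% and 71.3%, with adjusted p = 9.72e-05 from the quasi-binomial model. The second, at 54133838, was at 4.72%, 7.49% and 6.46% against 70.3%, 73.1% and 60.6% (adjusted p = 9.96e-05, same model with limma). The third of them, at 54133894, was at 4.17%, 6.08% and 5.86% against 53.4%, 55.3% and 37.6%. The groups were far apart at each, and TTKO day 29 replicate 3 was the lowest of its group at all 3. Capture had 5.0% in wild type and 74.9% at day 29 at the first, 8.3% and 55.1% at the second and 4.4% and 39.8% at the last, below the amplicon means at day 29 of 78.7%, 68.02% and 48.8%.

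A CpG in a REST amplicon 18071 bases from 4930588N13Rik (chromosome 5, 150291266 to 150291267) was at 15.3%, 21.1% and 14.1% in wild type and 77.5%, 73.0% and 76.8% at day 29. A CpG in a CTCF amplicon 23973 bases from Ipcef1 (chromosome 10, 3270090 to 3270091) was at 25.7%, 25.6% and 29.9% against 71.6%, 66.0% and 65.7%. Of the losses, a CpG in Fgfr2, a fibroblast growth factor receptor gene (chromosome 7, 138970031 to 138970032), was largest, at 75.8%, 76.7% and 80.1% in wild type and 38.9%, 41.5% and 40.3% at day 29. One 51653 bases from 4931440P22Rik was at 42.7%, 41.8% and 37.6% against 6.30%, 2.63% and 2.05%. One 24088 bases from Cadm1, a cell adhesion gene, was at 49.6%, 47.5% and 56.2% against 12.7%, 14.5% and 19.05%, on 137 to 552 reads. CpGs in Tssc1 (43.0% ± 4.29 against 8.54% ± 2.64, SD, n = 3 each) and 16359 bases from 2700060E02Rik (50.9% ± 1.28 against 18.2% ± 3.12) complete the 5. At all 10 CpGs the groups did not overlap, with adjusted p from 1.06e-05 to 0.0093 (quasi-binomial model with limma). Since the 10 were picked as the largest differences among those called in these samples, this follows largely from the choice.

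**Figure D5:**
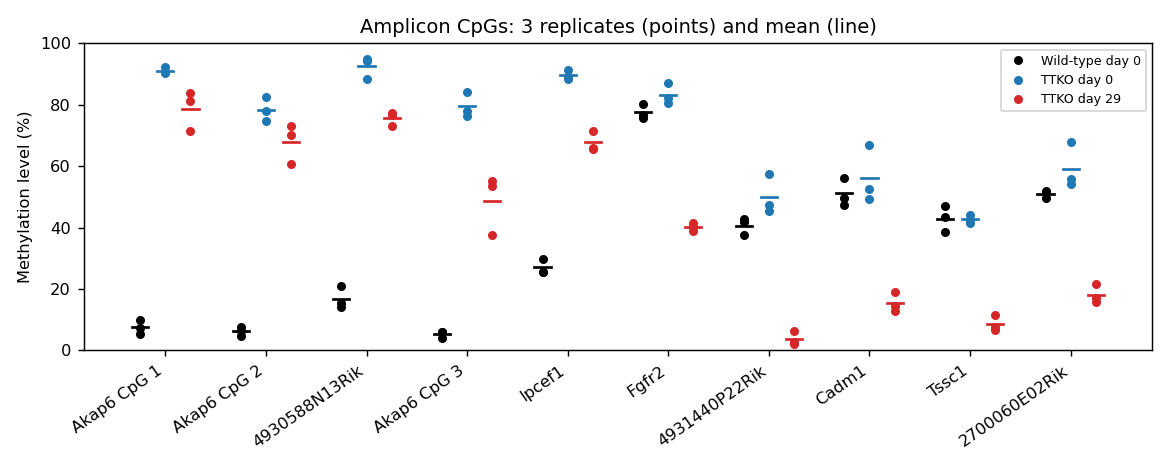
Methylation level (y axis, %) of the 5 amplicon CpGs with the largest gain and the 5 with the largest loss among those called, named by overlapping or nearest gene (x axis), in 3 replicates each (points) with their mean (line). At the 5 gains TTKO day 29 lies between wild type and TTKO day 0, and at the 5 losses it lies below both.

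Both assays covered 259 of the tested CpGs. Of 30 that capture called higher, all 30 were called higher by amplicons, and of 25 that capture called lower, 21 were called lower and 4 were not called. Amplicons called 35 of the 259 higher, of which 30 were called higher by capture. They called 100 lower, of which 21 were called lower by capture, 79 were not called and 88 had the same sign. The differences correlated with r = 0.953 over the 259 CpGs, which share amplicons and libraries. Their mean difference was 0.503 points by capture and -0.845 points by amplicons, so the means differed in sign.

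Culture time and Cre could be set beside this pair only in amplicons, as values over 384 CpGs with a level in every sample used. Wild type was at 26.3% ± 0.389 at day 0, 28.2% ± 0.568 in mock-treated cells of day 29 and 14.8% ± 0.173 after Cre on day 29 (SD, n = 3 each). TTKO cells were at 40.3% ± 0.423 at day 0, 39.0% ± 0.737 in mock-treated cells of day 29 and 24.6% ± 0.201 after Cre on day 29 (SD, n = 3 each). TTKO cells without DNMT3 thus stood close under untreated wild type and above wild type without DNMT3.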

How the data were processed

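Capture (SureSelect, Mouse Methyl-Seq baits) and amplicon bisulfite sequencing were analysed from deposited tables. Per the labels and the study's methods, the authors aligned capture reads to mm9 with QuasR and called levels with qMeth, and amplicon levels with AmpliconBiSeq from at least 100 reads. The deposited capture levels are percent of reads methylated, with the 3 replicates pooled and coverage as a read count of at least 50. The deposited amplicon levels are a fraction per sample with its coverage count. Methylated reads were level times coverage, which lay within the rounding of the level (1 decimal) of a whole number at 100% of the capture values under 500 reads, where this can fail. The columns that hold the authors' fitted rates and TET activity were not used. No column with values of a sample was left unmapped (0 columns).

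CpGs, genes and sequences were placed with the mm9 genome (NCBIM37) and GENCODE M1. Capture CpGs were compared with Fisher's exact test on pooled reads, and regions and promoters by their mean difference. Amplicon CpGs were compared with a quasi-binomial logistic model (0.5 added to each count, dispersion moderated with limma 3.58.1 in R 4.3.3 and not under 1, Benjamini-Hochberg). Both tests were checked on simulated data. Python 3.11.15 with numpy 2.4.6, scipy 1.17.1 and pandas 2.3.3 was used. Same-numbered amplicon replicates deviated with correlations of -0.0283 to 0.0740 between groups, so numbers were not taken as pairs. The 12 regions, 10 promoters and 5 CpGs with the largest gain and with the largest loss were named (regions outside chromosome 18), with 5 amplicon CpGs each way among those called, and in each of 8 gene lists the promoters that moved by 10 points. Some of these named items are not reported here. The comparison, its members and the lists were chosen with earlier results of these data known. Alternatives were the smallest difference, coverage, error model, chromosomes, weighting, region and promoter definition, test and left-out replicates.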

Additional observations from a re-analysis of the deposited data

How the results depend on the processing

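No capture replicate could be left out, since replicates are pooled. Of the alternative values, 40 kept their direction and stayed within 1.5 times a count or near a mean, 8 moved further and 0 reversed. At a smallest difference of 20 points in place of 10, 88056 CpGs were higher and 277215 lower, as were 1336 and 2457 regions. With at least 15 CpGs per region the counts were 1234 and 1486, and with gaps of up to 200 bases 17876 regions were lower (4743 higher). An over-dispersion of 0.0055 left 166491 higher and 456634 lower CpGs. The mean capture difference was -4.38 to -3.69 points over its alternatives. Without a replicate, amplicon calls were 50 to 54 higher and 112 to 146 lower, lowest for lower calls without TTKO Cre day 29 replicate 3, and the mean difference was -1.76 to -1.40 points. With a replicate block, although numbers were not pairs, 56 were higher and 158 lower. The amplicon DNMT3 step was -15.7 points from TTKO day 0 and -14.5 from mock-treated TTKO at day 29. The cause of these shifts was not tested, except that stricter limits leave fewer CpGs or regions. Depth limits single capture differences of a few points.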
